A study of Arabis alpina with 12 samples.

Results

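The domains of H3K27me1 and of H3K27me3, methylation states of the same lysine of histone H3, were compared in young leaves of Arabis alpina. Members were all domains of the deposited list of each mark, 56694 for H3K27me1 and 23093 for H3K27me3, together 79787 of the 178416 domains in the 4 lists of the series. The ChIP-seq libraries behind them were 2 with an antibody to H3K27me1, 2 with an antibody to H3K27me3 and 1 ChIP input, 5 of the 12 libraries of the series. All came from soil-grown plants of the accession Pajares, kept at 22.5 °C with a day of 16 h and a night of 8 h, and 1 mRNA library came from the same tissue. No mutant or treatment is named in the labels, which also do not say whether replicates came from separate plants. Whole leaves mix cell types, so marks on the same sequence may lie in different cells.

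In plants, H3K27me1 is set by the enzymes ATXR5 and ATXR6 in Arabidopsis and is typical of silent, transposon-rich heterochromatin, where DNA is also methylated at cytosines (5mC). H3K27me3 is set by the Polycomb complex PRC2 and is typical of developmental genes that are kept off in a tissue. Both states are thus linked to silence, at different kinds of sequence, and a single histone tail can carry only one of them at this lysine.

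Each mark was given as 1 list for the whole series, and replicate error could therefore not be measured. Sequencing depth is unknown for every library. Intervals are exact (Clopper-Pearson) 95% intervals for shares and order-statistic 95% intervals for medians, and they cover counting error only. No test between the marks was possible, and differences are descriptions of these lists. The H3K27me1 list was built on windows of 150 bp and the H3K27me3 list on windows of 300 bp, so very short domains and gaps could be resolved only for H3K27me1. The fourth column of each list, taken as a score per domain, was compared only within a list. Coordinates are 1-based on the authors' assembly, whose sequences reached 284.4 Mb when measured to the last domain or listed gene.

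H3K27me1 lay in many short domains set close together, and H3K27me3 in fewer, longer and more widely spaced ones. H3K27me1 domains had a median length of 600 bp (interval 600 to 600) and a mean of 857 bp ± 732 (SD, n = 56694 domains), and H3K27me3 domains a median of 900 bp (900 to 900) and a mean of 1142 bp ± 924 (SD, n = 23093 domains). The central 50% of lengths ran from 450 to 1050 bp for H3K27me1 and from 600 to 1500 bp for H3K27me3. Domains of at least 3 kb made up 2.46% of the H3K27me1 list and held 11.3% of its bp, against 4.64% of the H3K27me3 list and 16.7% of its bp. At 6 kb or more there were 49 H3K27me1 domains and 106 H3K27me3 domains, although the H3K27me1 list was the longer one.

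Spacing separated the marks more than length did. The median gap to the next domain of the same list was 750 bp (interval 750 to 750) for H3K27me1 and 3900 bp (3600 to 3900) for H3K27me3. Gaps of 600 bp or less made up 49.1% of all H3K27me1 gaps and 22.9% of H3K27me3 gaps. Gaps over 10 kb made up 10.6% of H3K27me1 gaps and 32.1% of H3K27me3 gaps. When gaps of up to 600 bp were closed in both lists, the median length became 1050 bp for H3K27me1 and 900 bp for H3K27me3, so the order of the lengths depends on how neighbouring domains are joined. The order of the spacings did not change, at 2550 bp for H3K27me1 and 7200 bp for H3K27me3.

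**Figure D1:**
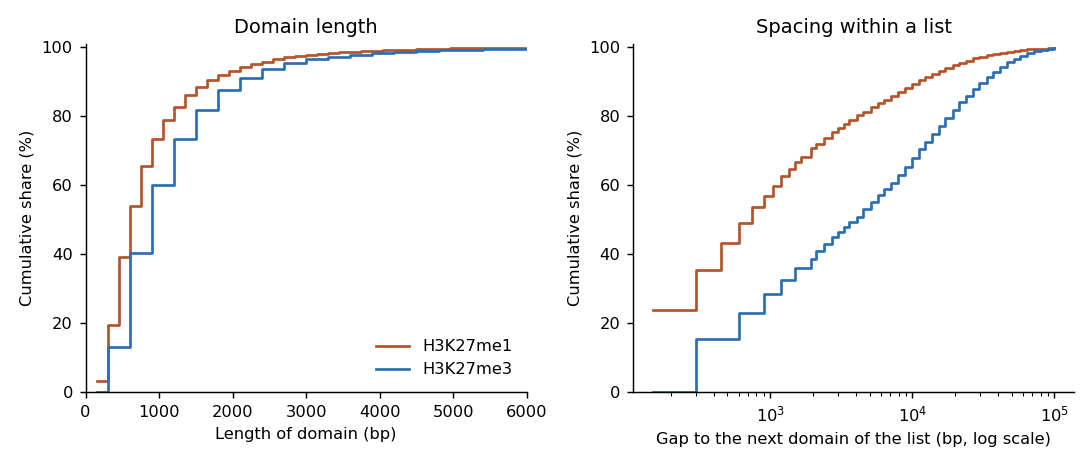
Cumulative share of domains by length (left, bp) and of gaps to the next domain of the same list (right, bp, log scale), for H3K27me1 and H3K27me3. The H3K27me1 curves lie to the left in both panels, with medians of 600 bp and 750 bp against 900 bp and 3900 bp for H3K27me3.

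Sequence under both marks came to 7.21 Mb, or 14.8% of H3K27me1 bp and 27.4% of H3K27me3 bp. H3K27me1 covered 17.1% of the assembly extent, so the share of H3K27me3 bp inside H3K27me1 was 1.60 times the share of all sequence inside it. The shared sequence came as 9246 stretches with a median of 600 bp. With only the 50% of domains of highest score per kb kept in each list, the shared bp were 6.95% of H3K27me1 and 12.7% of H3K27me3. Alone stood 41.4 Mb of H3K27me1 and 19.2 Mb of H3K27me3. Counting every domain with at least 150 bp in the other list as overlapping, 9031 H3K27me1 domains overlapped H3K27me3 (15.9%, interval 15.6% to 16.2%) and 8087 H3K27me3 domains overlapped H3K27me1 (35.02%, 34.4% to 35.6%).

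Each domain was placed in 1 of 6 relations to the other list: wholly inside 1 domain of the other mark (nested), holding at least 1 whole domain of it without being nested (containing), overlapping in part, abutting with a gap of at most 600 bp, near with a gap of up to 2 kb, or apart. Nested domains were 6.48% of the H3K27me1 list (interval 6.28% to 6.68%) and 17.9% of the H3K27me3 list (17.4% to 18.4%). Containing domains were 5.72% of H3K27me1 and 10.99% of H3K27me3, and part overlaps 3.73% of H3K27me1 and 6.16% of H3K27me3. Abutting domains were 7.76% of H3K27me1 (4397) and 3.19% of H3K27me3 (736), the least common relation there. An H3K27me1 domain may abut an H3K27me3 domain that overlaps another H3K27me1 domain. Domains near the other mark were 11.8% of H3K27me1 and 10.2% of H3K27me3, and domains apart from it 64.5% of H3K27me1 and 51.6% of H3K27me3. Among domains that shared nothing with the other list, the median distance to it was 5250 bp for H3K27me1 and 5550 bp for H3K27me3. On the sequences of 2026 such H3K27me1 domains and 373 such H3K27me3 domains, no domain of the other mark was listed.

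Where the marks overlapped, most domains met a single domain of the other mark, and their edges matched in part of the cases. Of the overlapping H3K27me1 domains, 97.7% met 1 H3K27me3 domain, and of the overlapping H3K27me3 domains 87.03% met 1 H3K27me1 domain and 11.8% met 2. In 6667 of the 9246 overlapping pairs, neither domain met another one. In 48.5% of these single pairs both edges of the H3K27me1 domain lay within 150 bp of those of the H3K27me3 domain, and 765 pairs were identical. At least 1 edge differed by over 600 bp in 23.5% of them. The shared bp made up a median of 66.7% of the sequence that a pair covered together. The H3K27me1 domain was the longer one in 52.02% of single pairs and the shorter one in 30.9%.

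The longest shared stretches, nested domains and separate domains were named by rule. The longest shared stretch was an H3K27me3 domain of 11.1 kb on scaff_73563_1 (45301 to 56400), wholly inside H3K27me1 and 5mC and 90.5% inside H3K4me3, a mark typical of active gene starts, on a scaffold with no listed gene. The second was 8.4 kb on chromosome 3 (26375701 to 26384100), wholly inside 5mC and H3K4me3 and 4411 bp from a listed gene. It ranked second by position only, in a tie with an 8.4 kb stretch on chromosome 5. The tied stretch, an H3K27me1 domain nested in H3K27me3, had no H3K4me3 and is given below. The second longest H3K27me3 domain nested in H3K27me1 was 7.8 kb on chromosome 7 (15371101 to 15378900), with 80.8% of its bp in 5mC and 84.6% in H3K4me3. Apart from the tied stretch on chromosome 5, the stretches named here carried both 5mC and H3K4me3 as well.

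The longest H3K27me1 domains nested in H3K27me3 had another context. They were 8.4 kb on chromosome 5 (19961551 to 19969950) and 7.65 kb on chromosome 3 (15355201 to 15362850), with 5mC over 96.4% and 66.7% of their bp, no H3K4me3 and no listed gene. Their scores per kb were 1.53 and 1.87 times the median of the H3K27me1 list. The longest domains that shared nothing were 13.95 kb for H3K27me1 (chromosome 2, 2339551 to 2353500) and 16.5 kb for H3K27me3 (scaff_58919_1, 1 to 16500). The H3K27me1 one held 10 listed genes at a score per kb 30.4 times its list's median, and the H3K27me3 one carried 1 listed gene, with the lowest listed mRNA coverage of 1, and had 6.23 times the median of its list. The second longest were 9.15 kb of H3K27me1 on scaff_40722_1 (2851 to 12000) and 11.4 kb of H3K27me3 on chromosome 7 (28813201 to 28824600), neither with a listed gene.

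What lay on a domain besides the mark separated H3K27me3 domains by their relation to H3K27me1, and H3K27me1 domains hardly at all. Overlapping H3K27me1 domains had 72.6% of their bp in 5mC against 68.01% for separate ones, and 4.05% in listed gene spans against 3.88%. H3K4me3 was the exception, at 37.8% of the bp of overlapping H3K27me1 domains and 14.04% of separate ones. Overlapping H3K27me3 domains had 63.2% of their bp in 5mC, against 3.09% for separate ones. They had 37.6% in H3K4me3 against 4.93%, and 4.66% in listed gene spans against 21.02%. On unplaced scaffolds lay 29.2% of overlapping H3K27me1 domains (interval 28.2% to 30.1%) and 27.4% of separate ones (26.97% to 27.8%). For H3K27me3 it was 28.8% of overlapping (27.9% to 29.8%) and 12.2% of separate domains (11.7% to 12.8%).

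**Figure D2:**
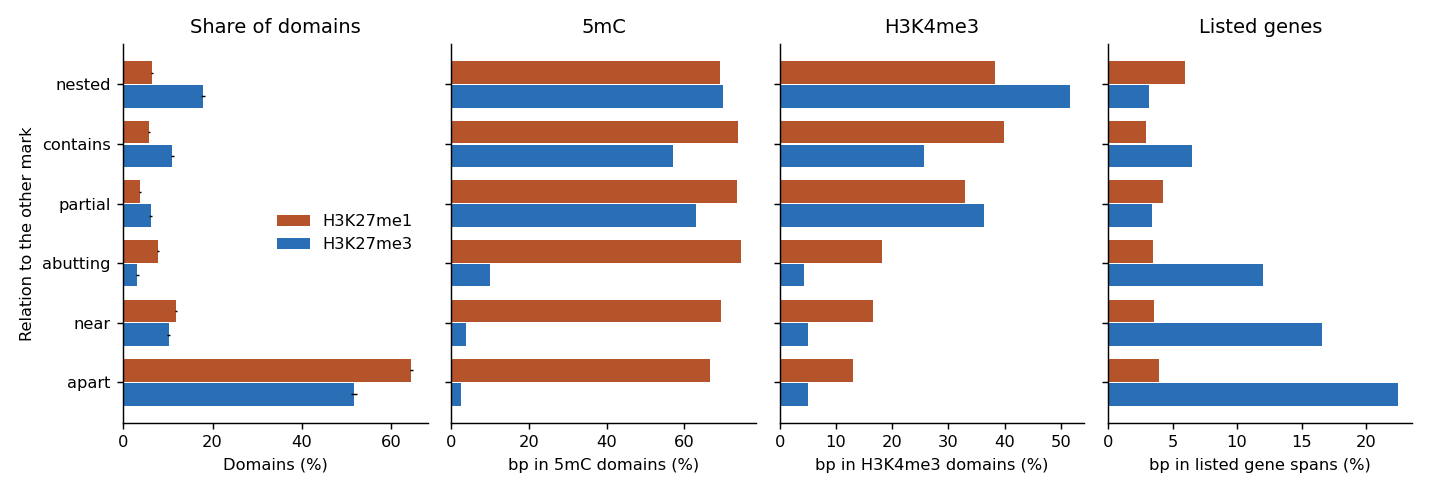
Domains of H3K27me1 and H3K27me3 by relation to the other mark, with the share of each list (error bars, exact 95% intervals) and the share of bp in 5mC, in H3K4me3 and in listed gene spans, all in %. The 5mC share of H3K27me1 domains is 66.8% to 74.8% throughout, whereas that of H3K27me3 domains is 57.1% to 70.1% in the 3 overlapping relations and 2.56% to 9.97% in the others.

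Between the relations, the 5mC share of H3K27me3 domains dropped between overlapping and abutting ones. The share in listed gene spans was lowest in the overlapping relations, without a steady order among them, and rose from abutting to near to apart. Nested H3K27me3 domains had 70.1% of their bp in 5mC and 3.19% in listed gene spans, and containing ones 57.1% and 6.47%. Domains overlapping in part had 63.1% and 3.43%. Those that abutted H3K27me1 without sharing sequence had 9.97% of their bp in 5mC and 11.99% in listed gene spans. Those near it had 3.64% and 16.6%, and those apart from it 2.56% and 22.5%. Free of any 5mC were 14.6% of overlapping H3K27me3 domains and 91.4% of separate ones.

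Around the edges of H3K27me1 domains, H3K27me3 was depleted outside and enriched inside. Inside H3K27me1, H3K27me3 covered 11.7% of the 150 bp windows in the outermost 300 bp and 21.1% of those between 900 and 1200 bp from the edge. Only long domains hold windows that deep, so this rise mixes depth with domain length. Of H3K27me1 domains over 3000 bp, 543 overlapped H3K27me3 and 674 were separate, against 1061 and 9972 of those up to 300 bp. Outside, it covered 4.27% of windows within 300 bp of an H3K27me1 edge and 2.44% between 300 and 600 bp. It was back at 9.92% between 2700 and 3000 bp, close to the 10.5% found over 10 kb away. Seen from H3K27me3 edges, H3K27me1 covered 28.3% of the windows in the outermost 300 bp inside and 14.2% of those within 300 bp outside. It covered 18.7% between 2400 and 2700 bp outside, and 15.03% over 10 kb away. The dip beside the edge was thus deeper for H3K27me3 around H3K27me1 than for H3K27me1 around H3K27me3. Windows near one edge are not independent of each other.

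**Figure D3:**
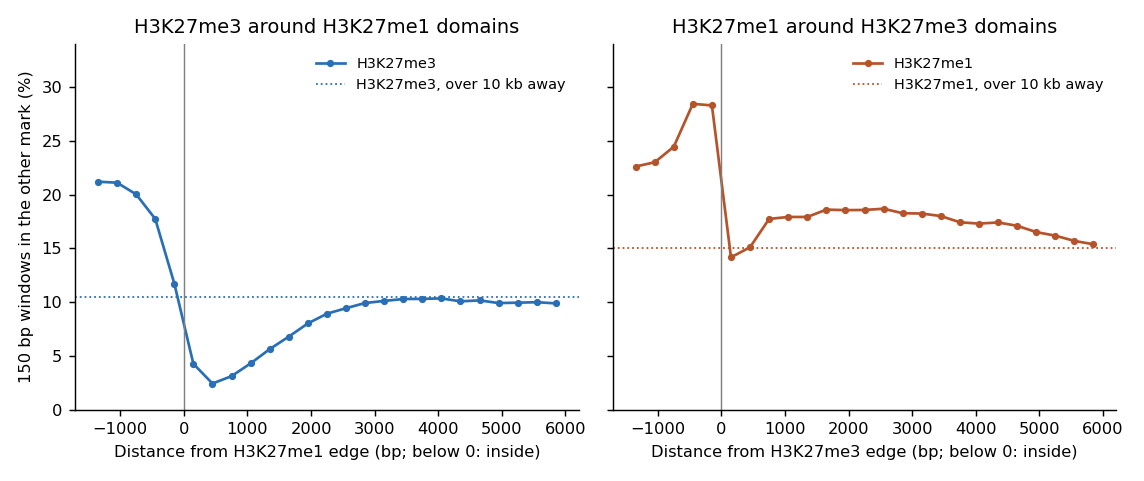
Share of 150 bp windows in the other mark (%) by distance from the edge of H3K27me1 domains (left) and of H3K27me3 domains (right), in bp, with negative distances inside the domain and the dotted line for windows over 10 kb away. H3K27me3 falls to 2.44% just outside H3K27me1 domains and reaches 21.2% inside them.

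The excess of H3K27me3 inside H3K27me1 was found where H3K4me3 or 5mC was also called. Where neither was called it was seen in listed genes alone. Over all windows, H3K27me3 covered 14.8% inside H3K27me1 and 8.12% outside it. In windows with H3K4me3 and without 5mC it covered 34.5% inside and 5.38% outside, and in windows with both of these marks 35.1% inside and 19.8% outside, with only 0.378 Mb of such sequence outside. In windows with 5mC and without H3K4me3 the values were 10.7% inside and 4.67% outside. In windows with neither, they were 8.43% inside, over 11.7 Mb, and 8.74% outside, over 195.5 Mb. Within listed gene spans, windows with neither had 10.7% inside, over 0.397 Mb, and 6.91% outside. Of the shared bp, 70.4% lay in 5mC, 45.5% in H3K4me3 and 13.7% in neither. For H3K27me1 alone these shares were 68.8%, 14.8% and 25.9%, and for H3K27me3 alone 6.08%, 5.06% and 89.3%. Whether the marks coincide on the same chromatin or are called together at sequences of a particular kind was not tested.

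The score per kb pointed in opposite directions in the lists. Overlapping H3K27me1 domains had a median score of 269 per kb (interval 268 to 270), against 247 per kb (246 to 247) for separate ones, a ratio of 1.09. Overlapping H3K27me3 domains had a median of 423 per kb (420 to 425), against 507 per kb (504 to 510) for separate ones, a ratio of 0.84. The central 50% of values overlapped in both lists, less so for H3K27me3. It ran from 238 to 310 per kb for overlapping and from 220 to 289 per kb for separate H3K27me1 domains, and from 383 to 482 per kb for overlapping and from 437 to 622 per kb for separate H3K27me3 domains.

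Length changed these ratios. For H3K27me1 the ratio of overlapping to separate was 1.11 for lengths over 300 and up to 600 bp, 1.05 over 900 and up to 1500 bp, 0.999 over 1500 and up to 3000 bp and 0.94 above 3000 bp, so overlapping domains scored higher only up to 1500 bp. For H3K27me3 it was 0.95 at 300 bp, 0.90 up to 600 bp, 0.76 over 900 and up to 1500 bp, 0.73 up to 3000 bp and 0.89 above 3000 bp. It stayed below 1 for H3K27me3 domains touching listed genes (0.88), not touching them (0.84), with 5mC over at least 50% of their bp (0.90), without 5mC (0.89), with H3K4me3 (0.72) and without it (0.86). Among separate H3K27me3 domains those with H3K4me3 had a median of 582 per kb and those without it 500 per kb. For H3K27me1 domains the ratio was 1.12 touching listed genes and 1.09 not touching them. It was 1.08 with 5mC over at least 50% of their bp and 1.11 without 5mC. With H3K4me3 it was 1.03 and without it 1.06, both below the ratio of the whole H3K27me1 list.

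Along the lists, overlap followed the score per kb in opposite ways. The share of H3K27me1 domains that overlapped H3K27me3 was 6.77% (interval 6.13% to 7.46%) in the lowest 10% by score per kb and 22.1% (20.99% to 23.2%) in the highest, and H3K4me3 covered 4.36% of bp in the lowest 10% and 28.5% in the highest. For H3K27me3 domains the share that overlapped H3K27me1 was 65.6% (63.6% to 67.5%) in the lowest 10% and 15.02% (13.6% to 16.5%) in the highest, with 14.8% in the group just below it. In the lowest 10% of H3K27me3 domains 50.4% of bp lay in 5mC and 9.27% of domains touched a listed gene, and in the highest 10% these shares were 11.1% and 29.3%. Across the 9246 overlapping pairs the scores per kb of both domains were related (Spearman rho = 0.42, Pearson r = 0.60 on log2 values). The domains of a pair share sequence and base composition, so this is a description only. Of these pairs, 14.02% had an H3K27me1 domain from the highest 10% of its list and 4.25% an H3K27me3 domain from the highest 10% of its own.

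**Figure D4:**
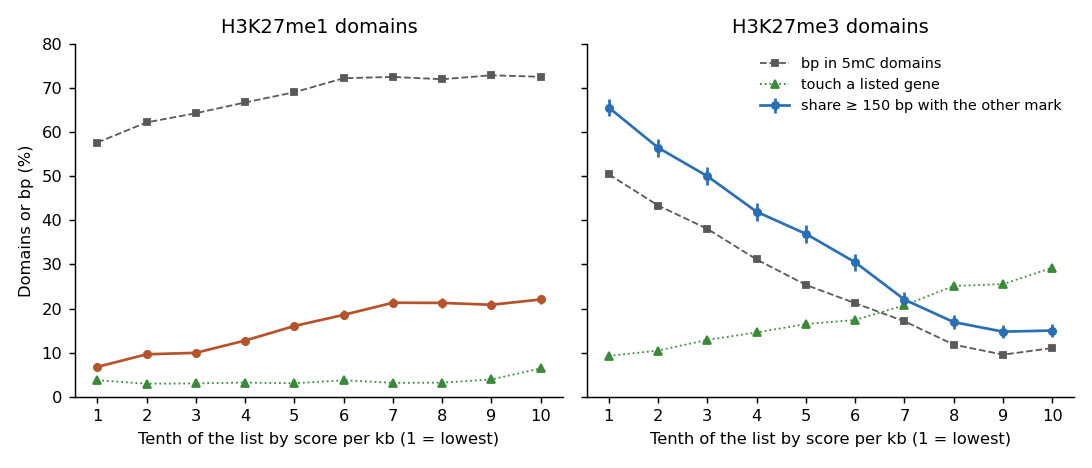
Domains of each list in 10 groups by score per kb, from lowest to highest, with the share that overlaps the other mark (exact 95% intervals), the share of bp in 5mC and the share touching a listed gene, all in %. The overlap is 6.77% in the lowest and 22.1% in the highest group of the H3K27me1 list, and 65.6% in the lowest and 15.02% in the highest group of the H3K27me3 list.

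The balance of the marks differed between chromosomes, mainly through H3K27me1. H3K27me1 covered from 11.4% (chromosome 3) to 18.4% (chromosome 6) of a chromosome, and H3K27me3 from 7.78% (chromosome 6) to 10.4% (chromosome 5). The ratio of H3K27me1 to H3K27me3 bp was 2.37 on chromosome 6, 2.15 on chromosome 2 and 1.99 on chromosome 7. It was between 1.13 and 1.45 on the other chromosomes and 2.97 on the scaffolds. The part of H3K27me3 inside H3K27me1 followed, at 18.6% on chromosome 1, 30.1% on chromosome 6 and 46.99% on the scaffolds. Divided by the H3K27me1 coverage of the same sequence, it was between 1.48 and 1.70 on all 8 chromosomes and 1.65 on the scaffolds.

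Within chromosomes, overlapping H3K27me3 domains were denser, and separate ones sparser, where H3K27me1 covered more sequence. Bins of 500 kb were ordered by H3K27me1 coverage. Overlap is itself defined by H3K27me1, so part of this pattern follows from the ordering. In the 118 bins with most H3K27me1, where it covered 26.6% of sequence, there were 35.9 overlapping and 25.4 separate H3K27me3 domains per Mb, and 50.8% of H3K27me3 bp lay inside H3K27me1. In the 117 bins with least, at a coverage of 4.55%, there were 12.8 overlapping and 85.7 separate domains per Mb, and 8.73% of H3K27me3 bp lay inside H3K27me1. Relative to the H3K27me1 coverage of the bins these shares were 1.91 and 1.92 times, so overlap was about as far above coverage in both kinds of bin. In the bins between them, taken as 2 further groups, it was somewhat less so, at 1.71 and 1.73 times. H3K27me1 covered more sequence than H3K27me3 in 304 of 470 bins and less in 164.

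Relative to listed genes, H3K27me1 kept away from spans and their surroundings, and H3K27me3 alone did so much less. Listed genes are the 24657 genes of the mRNA table, given without strand or name. Their spans made up 22.01% of the extent and the 2 kb on each side a further 19.3%. H3K27me1 without H3K27me3 had 3.85% of its bp in spans and 6.84% in the 2 kb flanks. Sequence with both marks had 4.28% in spans and 5.82% in flanks, close to H3K27me1 alone. H3K27me3 without H3K27me1 had 19.6% in spans and 19.2% in flanks, nearer to the shares of the extent. The extent includes the gene-poor H3K27me1 sequence, however. Outside H3K27me1, H3K27me3 covered 6.20% of windows in listed genes and 8.79% of windows outside them.

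The profiles with distance crossed near 2 kb. Within 250 bp outside a listed gene, H3K27me1 covered 1.33% of windows and H3K27me3 4.45%, against 17.1% and 9.27% of all windows. Between 1500 bp and 2 kb they covered 10.6% and 10.8%, and at 5 to 10 kb 23.7% and 11.6%. Beyond 20 kb from any listed gene H3K27me1 covered 34.6%, whereas H3K27me3 was at 8.88%. Inside spans the marks also differed with depth. H3K27me1 covered 1.78% of windows in the outermost 250 bp and 6.15% of those over 1500 bp from either end, while H3K27me3 covered 7.22% and 5.06%.

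Single domains met genes in different ways. Of all H3K27me1 domains, 3.65% (interval 3.50% to 3.81%) touched a listed gene, and of these 73.3% lay wholly within the spans. Of all H3K27me3 domains, 18.2% (17.7% to 18.7%) touched a listed gene, and 51.02% of these lay wholly within. Separate H3K27me3 domains touched one in 25.6% of cases (24.9% to 26.3%) and lay a median of 1833 bp from the nearest listed gene, counting those that touch one as 0. Overlapping H3K27me3 domains touched one in 4.48% of cases (4.04% to 4.95%) and lay 8480 bp away, as far as overlapping H3K27me1 domains at 8466 bp and separate ones at 8410 bp. These medians leave out domains on sequences with no listed gene, which were 1425 overlapping and 6657 separate H3K27me1 domains and 1264 overlapping and 809 separate H3K27me3 domains.

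Genes with 200 bp or more of the span in domains were taken as marked. H3K27me1 without H3K27me3 was on 788 genes, both marks on 346 and H3K27me3 without H3K27me1 on 2889. Over all listed genes 4.60% carried H3K27me1 and 13.1% H3K27me3. Both marks were thus on 30.5% of the genes with H3K27me1 (interval 27.8% to 33.3%) and on 10.7% of those with H3K27me3 (9.65% to 11.8%). Genes with both marks were the longest, with a median span of 4602 bp, against 3117 bp for H3K27me1 alone, 1967 bp for H3K27me3 alone and 2064 bp for neither. Longer spans can reach 200 bp of each mark more easily, and how much this adds to the order was not tested. With 50% of the span required instead, 402 genes had H3K27me1 alone, 61 both and 1778 H3K27me3 alone.

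The marks took different parts of a gene. H3K27me1 covered a median of 36.2% of the span where it was the only one of the pair, and H3K27me3 62.7%. These shares depend on span length, which differed between the classes. In genes of 1500 to 3000 bp they were 37.3% and 62.1%, and at 3000 to 6000 bp 25.3% and 34.7%. Over 6000 bp the order was the other way, at 23.7% and 19.9%. In genes of at least 2 kb with H3K27me1 alone, the mark reached neither end in 278 of 556 genes, 1 end in 187 and both ends in 91. In those with H3K27me3 alone, it reached neither end in 383 of 1410 genes, 1 end in 741 and both in 286. Median spans of these 556 and 1410 genes were 4200 and 3165 bp. A mark counted as reaching an end when it covered at least 150 of the outermost 300 bp.

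The other marks on these genes also differed. 5mC was on 5.41% of all listed genes and H3K4me3 on 76.2%. 5mC was on 70.4% of genes with H3K27me1 alone (interval 67.1% to 73.6%), 78.9% of those with both marks (74.2% to 83.1%) and 3.08% of those with H3K27me3 alone (2.48% to 3.78%). H3K4me3 was on 55.3% of genes with H3K27me1 alone, 69.4% with both, 44.3% with H3K27me3 alone and 81.6% with neither.

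mRNA coverage of genes with either mark was low, and lowest where H3K27me1 was present. Coverage is the authors' read coverage of a gene's exons, which has a lowest listed value of 1 and a median of 5.77 over all listed genes. Its median was 1.46 (interval 1.36 to 1.60) for genes with H3K27me1 alone, 1.11 (1 to 1.31) for genes with both marks, 1.99 (1.91 to 2.08) for genes with H3K27me3 alone and 6.71 (6.58 to 6.83) for genes with neither. The central 50% ran from 1 to 3.34 for H3K27me1 alone, from 1 to 2.73 for both, from 1.11 to 5.66 for H3K27me3 alone and from 3.09 to 14.3 for neither, so the marked classes overlapped each other over most of their range. With 1 mRNA library there is no replicate check of these medians, and genes are not replicates.

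The lowest and highest values were counted as well. A coverage of 1 was held by 8.86% of all listed genes, by 36.5% of those with H3K27me1 alone (interval 33.2% to 40.02%), 47.1% with both (41.8% to 52.5%) and 22.7% with H3K27me3 alone (21.2% to 24.3%). Coverage of at least 20 was held by 15.6% of all listed genes, by 3.81% with H3K27me1 alone (2.58% to 5.39%), 3.47% with both (1.80% to 5.98%) and 8.31% with H3K27me3 alone (7.33% to 9.37%). The intervals of H3K27me1 alone and both overlapped, and without the 10 genes on the 13.95 kb domain the share for H3K27me1 alone was 2.83% (1.78% to 4.25%). Whether genes without mRNA signal are missing from the list is not stated in the sources used here.

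**Figure D5:**
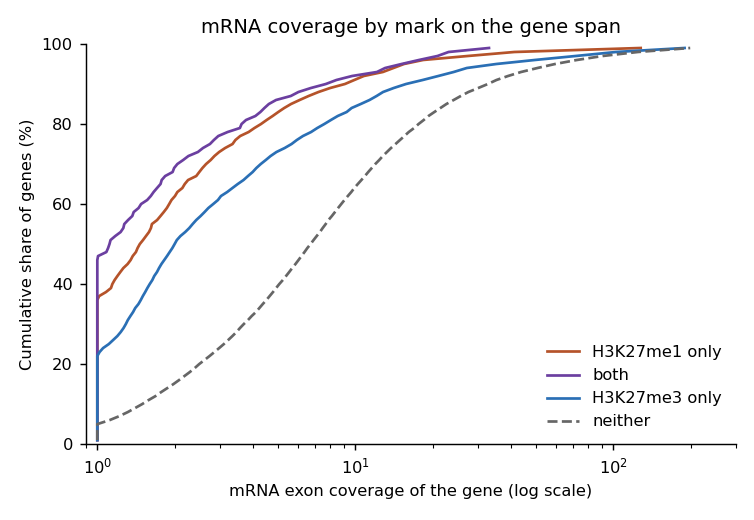
Cumulative share of listed genes (%) by mRNA exon coverage (log scale), for genes with H3K27me1 only, both marks, H3K27me3 only and neither. The curves start at a coverage of 1 with 36.5% of genes with H3K27me1 only, 47.1% with both, 22.7% with H3K27me3 only and 5.22% with neither, and all 3 marked classes lie left of the genes with neither mark.

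The difference between H3K27me1 and H3K27me3 genes went with the other marks they carried. Among genes with neither H3K4me3 nor 5mC, 107 with H3K27me1 alone had a median of 1.42 (interval 1.19 to 1.66), 34 with both one of 1.34 (1 to 2.05) and 1568 with H3K27me3 alone one of 1.48 (1.41 to 1.55), and the intervals overlapped. With H3K4me3 and without 5mC it was 2.17 (1.62 to 2.65) for 126 genes with H3K27me1 alone, 1.62 (1.05 to 3.62) for 39 with both and 3.98 (3.65 to 4.38) for 1232 with H3K27me3 alone. There the intervals of the first and the last did not overlap. With both H3K4me3 and 5mC it was 1.75 (1.42 to 2.00) for 310 genes with H3K27me1 alone, 1 (1 to 1.23) for 201 with both and 3.98 (2.59 to 6.67) for 49 with H3K27me3 alone. With 5mC alone beside them it was 1 (1 to 1.21) for 245 genes, 1.15 (1 to 1.59) for 72 and 1.40 (1 to 1.77) for 40, with overlapping intervals. Genes with neither H3K27 mark also differed by context. Their median was 2.03 (1.96 to 2.13) without H3K4me3 and 5mC and 1.75 (1.49 to 2.15) with 5mC alone. With H3K4me3 it was 8.05 (7.87 to 8.20) without 5mC and 5.90 (5.29 to 6.61) with it. Beside H3K4me3, genes with H3K27me1 alone thus had a lower median than genes with H3K27me3 alone. Without H3K4me3 the intervals of their medians overlapped, near the lowest listed value, which does not show that coverage was alike. A coverage of 1 was held there by 33.6% of genes with H3K27me1 alone and 33.4% with H3K27me3 alone where 5mC was absent. Where 5mC was present the shares were 50.2% (43.8% to 56.6%) and 35% (20.6% to 51.7%).

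Median coverage was lower in genes with more of the span under a mark. With H3K27me1 alone on up to 25% of the span, the median was 2.15 (interval 1.81 to 2.63, 286 genes) and 19.2% of genes were at 1, and with over 75% of the span it was 1 (1 to 1, 190 genes) and 59.5% were at 1. With H3K27me3 alone on up to 25% it was 2.67 (2.27 to 3.38, 476 genes) and 16.4% were at 1, and with over 75% it was 1.70 (1.60 to 1.83, 1133 genes) and 28.6% were at 1. The share of genes with a coverage of at least 20 did not follow the medians for H3K27me1 alone, at 4.55% with up to 25% of the span and 7.37% with over 75%, where 8 of the 14 such genes lay on the 13.95 kb domain. 5mC was on 47.2% of genes with H3K27me1 alone on up to 25% of the span and on 91.1% with over 75%, against 7.98% and 1.06% for H3K27me3 alone. H3K4me3 was on 61.2% and 45.3% of these genes for H3K27me1 alone, and on 57.8% and 35.5% for H3K27me3 alone. Median spans were 4183 and 1990 bp for H3K27me1 alone, and 3605.5 and 1375 bp for H3K27me3 alone. The part of 5mC, H3K4me3 and span length in the medians was not tested here. Reaching both ends of a gene of at least 2 kb went with a coverage of 1 in 74.7% of 91 genes with H3K27me1 alone (64.5% to 83.3%) and in 30.4% of 286 genes with H3K27me3 alone (25.1% to 36.1%). These 2 sets also differed in 5mC, which was on 98.9% of the former and 3.15% of the latter. H3K4me3 was on 62.6% and 29.7% of them. The part of these marks in the contrast was not tested. The medians also differed with span length. In genes of 1500 to 3000 bp the median was 1.25 (1.03 to 1.43) for H3K27me1 alone, 1 (1 to 1.10) for both and 1.80 (1.71 to 1.97) for H3K27me3 alone. In genes over 6000 bp it was 1.93 (1.59 to 2.73), 1.55 (1.24 to 2.07) and 2.99 (2.26 to 3.78).

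In the 346 genes with both marks, most of the H3K27me3 bp and less of the H3K27me1 bp lay under the other mark. At least 200 bp were shared in 272 of them (78.6%, interval 73.9% to 82.8%), and 71 genes (20.5%, 16.4% to 25.2%) carried the marks on separate parts of the span. A median of 41.3% of the H3K27me1 bp of such a gene was also H3K27me3 (34.99% to 49.9%), and 75.7% of its H3K27me3 bp was also H3K27me1 (70.2% to 85.7%). Median mRNA coverage was 1 (1 to 1.16) with at least 200 bp shared and 1.68 (1.27 to 2.04) with less.

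Marked genes had marked neighbours more often than unmarked genes did, for either mark. The next listed gene along the sequence carried H3K27me1 after 12.9% of genes with it (interval 10.9% to 15.2%) and after 3.86% of genes without it (3.61% to 4.12%). For H3K27me3 these shares were 21.9% (20.5% to 23.4%) and 11.9% (11.5% to 12.4%). Runs of at least 3 neighbouring listed genes with the mark held 60 genes (5.29%) for H3K27me1 and 422 genes (13.04%) for H3K27me3, and the longest had 11 and 8 genes. Strand was not given, and a domain across 2 genes marks both. This applied to 26 H3K27me1 and 47 H3K27me3 domains, and the 13.95 kb H3K27me1 domain alone marked 10 listed genes.

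The genes of highest mRNA coverage in each class were named by rule, 2 per class because identifiers come without gene names. With H3K27me1 alone they were Aa_G288930 (chromosome 2, 2342633 to 2343737, coverage 464.6) and Aa_G288970 (chromosome 2, 2349232 to 2350256, coverage 436.0), both wholly under H3K27me1 and 5mC and free of H3K4me3. Both lie on the 13.95 kb domain named above, which held 8 of the 30 genes with H3K27me1 alone and a coverage of at least 20. Off this domain the highest coverage in the class was 165.8. With both marks they were Aa_G571830 (chromosome 3, 23398911 to 23405367, coverage 104.96), with H3K27me1 on 27.9% and H3K27me3 on 32.5% of its span, and Aa_G110390 (chromosome 2, 16675259 to 16677143, coverage 99.04), with 15.9% and 31.8%. With H3K27me3 alone they were Aa_G719360 (chromosome 8, 35330380 to 35331765, coverage 3649) and Aa_G15430 (chromosome 8, 16670250 to 16671094, coverage 2011), with H3K27me3 on 43.3% and 71.01% and H3K4me3 on 86.6% and 88.9% of their spans.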

How the data were processed

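The authors deposited 1 domain list per mark with a whole-number score per domain and no header, and 1 table of mRNA signal, which its name gives as read coverage of exons by gene. Bowtie and SICER are named, without versions, in the submitters' processing notes. The genome build, calling parameters and the combining of replicates are not stated there, in the labels or in the files. Starts were read as 0-based and ends as inclusive, and gene positions as 1-based. Overlaps, distances and medians were computed with Python 3.11.15, numpy 2.4.6, pandas 2.3.3 and scipy 1.17.1, and the interval functions were tested on 20 simulated layouts with known answers. No filter was set on score or coverage. Depth is unknown, so precision is limited to counting intervals. No test was run, for want of replicates. Named genes were the 2 of highest coverage per class and named domains the 2 longest nested, shared or separate ones, ties by position. The members, classes and lists were chosen with earlier results of these data known. Lists of genes by function were not used, since identifiers have no names. Alternatives are given at the end.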

Additional observations from a re-analysis of the deposited data

How the results depend on the processing

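Of 78 alternative values, 32 stayed within the interval of the reported value, or within 1.5 times a count, and 46 moved outside it. In these settings H3K27me1 and H3K27me3 kept their order except in length with gaps closed. Depth is unknown, so what a deeper library would add to either list cannot be said. On the 8 chromosomes alone, the median gap of H3K27me3 was 4200 bp, shared bp were 14.5% of H3K27me1 and 23.03% of H3K27me3, overlapping domains 15.6% and 30.4%, nested H3K27me3 domains 15.2%, bp in spans 4.05% and 17.2%, and bp in flanks 8.20% and 17.7%. Keeping the 50% of domains with the highest score per kb, the median length of H3K27me1 was 750 bp, the gaps 2100 and 7800 bp, shared bp 6.95% and 12.7%, overlapping domains 7.19% and 16.2%, nested domains 3.73% and 8.03%, bp in spans 4.72% and 18.5%, bp in flanks 6.05% and 17.8%, genes with both marks 134, and the median coverage with H3K27me1 alone 1.15. Both lists are shorter in that setting, and the share of H3K27me3 inside H3K27me1 was 1.28 times the H3K27me1 coverage, against 1.60 for whole lists. With gaps of up to 600 bp closed, the median length of H3K27me1 was 1050 bp, the gaps 2550 and 7200 bp, shared bp 13.8% of H3K27me1, overlapping domains 23.5% and 41.6%, and nested domains 5.95% and 26.8%. With 50% of the domain as the least overlap, overlapping domains were 13.2% and 32.5% and the score ratio of H3K27me1 was 1.10. It was 1.08 for domains of 600 to 1500 bp. In 1 kb flanks lay 2.26% and 6.85% of bp. With 50% of the span required, 402 genes had H3K27me1 alone, 61 both and 1778 H3K27me3 alone, with median coverage of 1 and 1.80 for the single marks. Without H3K4me3 and 5mC the medians were 1.34 for both and 1.48 for H3K27me3 alone. Leaving out the genes of the longest H3K27me1 domain, an alternative chosen after seeing the data, left the median for H3K27me1 alone at 1.45. The cause of these shifts was not tested. No paired analysis was possible because replicates of a mark are not listed apart, and leaving out a replicate could not be run for the same reason.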
